A study of Arabidopsis thaliana with 12 samples.

Results

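Mature microRNAs (miRNAs) from lineage-specific families with 3-digit numbers were followed in roots and seedlings of Arabidopsis thaliana, ecotype Col-0. The members are the entries with a family number from 401 to 999, leaving out 14 family numbers, and they were picked by name and not by level. They comprise 58 of the 240 entries in the 12 files, from 39 of 136 families. Where loci give an identical mature product the files list them as 1 entry, such as miR447a-3p/miR447b, and reads of their loci cannot be told apart.

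Small RNA was sequenced from 6 groups of 2 libraries each. Root libraries from plants aged 9 days hold RNA pulled down with a GFP fusion of ARGONAUTE1 (AGO1), the protein that carries most plant miRNAs. The fusion was driven by the ACL5 promoter (metaxylem and procambium) or by the EN7 promoter (endodermis). Each line was studied in the wild type (WT) and in ktn1-20, a mutant allele of the microtubule-severing enzyme katanin, called ktn1 below. The remaining 4 libraries hold total small RNA of whole WT and ktn1-20 seedlings aged 14 days, with no transgene. Per the labels every group is Col-0 and both root lines carry GFP-AGO1, so plants without the fusion are represented by the seedlings alone, and no control pull-down was analysed here. A table of mature miRNAs measures neither the KTN1 transcript nor markers of cell types, so genotype and layer rest on the labels. Nothing in the labels says whether the 2 libraries of a group came from separate plants or cultures, so p-values measure the spread between these libraries, which may be technical.

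A plant miRNA is cut from a hairpin transcript as a duplex of a 5p and a 3p strand. One strand, the guide, stays in AGO1 and directs cleavage or silencing of matching transcripts, while its partner is usually lost. Families found only in Arabidopsis and its relatives are often young, expressed at low level and made from 1 or a few loci, in contrast to the families shared by all land plants. The level of such a miRNA in AGO1 of 1 cell layer is a share of the reads from the fusion there, not an amount. It does not tell whether the miRNA was made in that layer.

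Values are RPM (reads per 1000000 reads), and all values above 0 in a file were whole multiples of its lowest value, which was taken as 1 read. By this reading the denominators were 5804745 to 13004041 reads in the AGO1 libraries and 13769316 to 44332443 reads in seedlings. A floor of 3 reads, below which a value was not told from 0, lay between 0.231 and 0.517 RPM in AGO1 libraries and between 0.0677 and 0.218 RPM in seedlings. Floors and intervals of shares cover counting error only. A pair of libraries stood apart from their groups on the first principal component of the 86 entries tested, which held 56.5% of the variance: ACL5 ktn1 replicate 2 (1.11 against -8.50 for its partner) and EN7 WT replicate 1 (-6.37 against 5.27).

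The members were a small part of the miRNA pool. In ACL5 lines their summed level was 453 ± 70.5 RPM in WT and 543 ± 6.65 RPM in ktn1, and in EN7 lines 568 ± 169 RPM in WT and 404.8 ± 200.4 RPM in ktn1 (SD, n = 2 each). This was 0.166%, 0.168%, 0.172% and 0.0705% of all listed miRNA values in these groups. The EN7 groups overlapped in summed level, since the WT libraries held 688 and 449 RPM and the ktn1 libraries 547 and 263 RPM. As a share of listed miRNAs they did not, at 0.224% and 0.121% in WT and 0.0919% and 0.0491% in ktn1. Listed miRNAs were 30.7% and 37.2% of reads in EN7 WT and 59.5% and 53.6% in EN7 ktn1. Outside miR165 and miR166 the shares overlapped, at 0.376% and 0.179% in WT and 0.218% and 0.140% in ktn1. In seedlings the sum was lower in RPM, at 163 ± 26.4 in WT and 142 ± 13.2 in ktn1, but made up a larger share of listed miRNAs, 0.709% and 0.743%. Within each library the 3 highest members supplied 37.2% to 59.0% of the sum.

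Of the 58 members, 36 were recovered with AGO1, meaning at least 3 reads in both replicates of at least 1 root group. They come from 29 families. Among the other 182 entries of the series the share recovered was 72.0%, against 62.1% of the members. A further 10 members had reads in some AGO1 library without reaching this floor, and 12 were at 0 in all 8. Only 12 members reached 10 RPM in at least 2 AGO1 libraries, the level required for a test, so the others are described without one. In seedlings 43 members reached the floor in both replicates of a group and 5 reached the level required for a test.

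**Figure D1:**
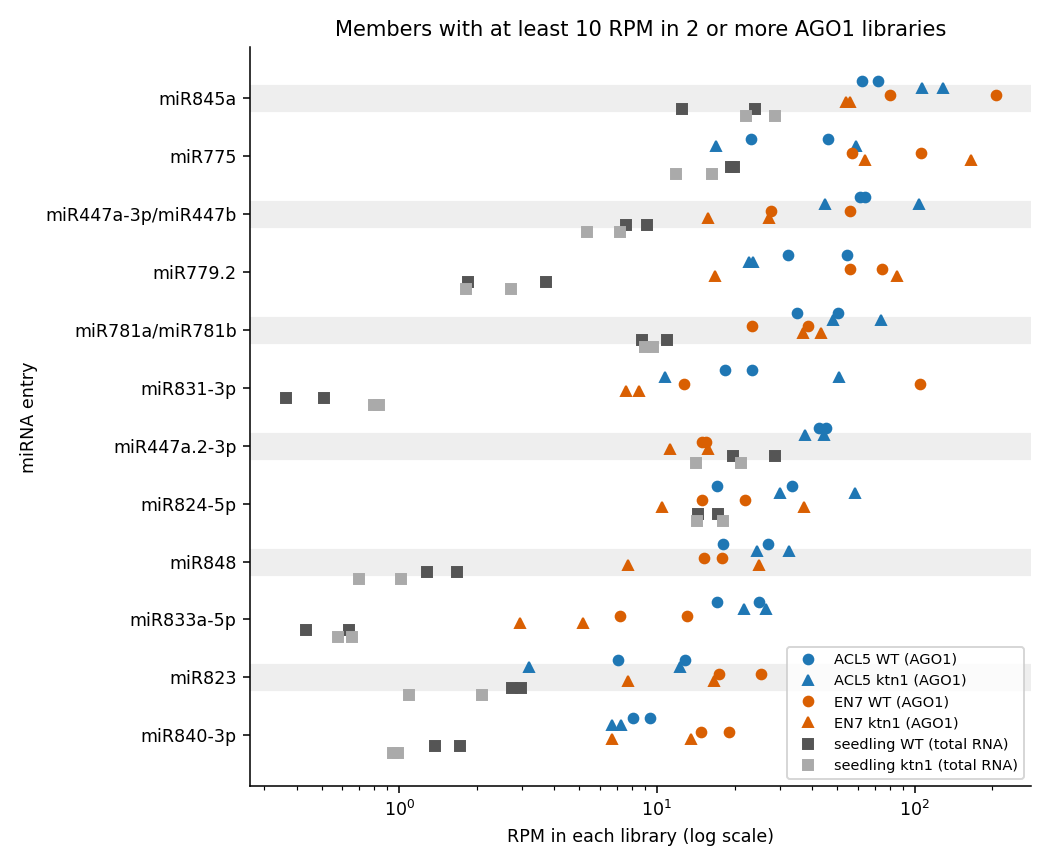
RPM in each of the 12 libraries, on a log scale, for the 12 members that reached 10 RPM in at least 2 AGO1 libraries, ordered by their mean over the 8 AGO1 libraries. Each point is 1 library, with colour and shape for the group. miR845a and miR775 had the highest means, and miR831-3p and miR833a-5p were below 1 RPM in every seedling library.

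Members that act on chromatin and transposons included the most abundant of all. miR845a matches the primer-binding site of LTR retrotransposons and is known for its role in pollen. It had 72.0 and 62.2 RPM in ACL5 WT, 107 and 129 in ACL5 ktn1, 206 and 80.0 in EN7 WT and 56.1 and 54.3 in EN7 ktn1. The ktn1 libraries were thus above WT in ACL5 and below WT in EN7, with 1 EN7 WT library far above all others. WT seedlings had 24.0 and 12.5 RPM of miR845a and ktn1 seedlings 22.2 and 28.8 RPM, ranges that overlap. Its sister entry miR845b stayed at or below 1.08 RPM in every library.

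miR823 targets CMT3, a DNA methyltransferase of non-CG sites. It had 12.8 and 7.06 RPM in ACL5 WT, 12.3 and 3.20 in ACL5 ktn1, 25.3 and 17.4 in EN7 WT and 16.7 and 7.75 in EN7 ktn1. Both EN7 WT libraries exceeded every other root library. Seedlings held 1.09 to 2.98 RPM. miR773a, a regulator of the DNA methyltransferase gene MET2, ranged from 0.330 to 6.61 RPM in root AGO1 and from 0.0726 to 0.192 RPM in seedlings. Its 4 EN7 values, from 2.16 to 6.61 RPM, overlapped those of ACL5, from 0.330 to 2.24 RPM, by a narrow margin. miR402, which targets the DNA demethylase gene DML3, had no read in AGO1 libraries and 1 to 3 reads in each seedling library. Of the 5 members of this group (miR402, miR773a, miR823, miR845a and miR845b), 2 were tested in root libraries and neither passed in any comparison.

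Members that regulate transcription factors and hormone signalling were miR824 and miR847. miR824-5p targets AGL16, a MADS-box gene of stomatal development and flowering. Its values were 33.6 and 17.1 RPM in ACL5 WT, 30.01 and 58.8 in ACL5 ktn1, 15.01 and 21.9 in EN7 WT and 37.1 and 10.5 in EN7 ktn1. All 4 groups overlapped with at least 1 other, and the seedling values of 14.3 to 18.1 RPM fell inside the root range. miR847, which targets the auxin response repressor gene IAA28, was at 0 in all 8 AGO1 libraries and at 0.436, 0.512, 0.586 and 0.653 RPM in seedlings.

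The members with targets in metabolism described next are miR775 and the MIR447 products. miR775 targets a galactosyltransferase gene. It had 46.1 and 23.3 RPM in ACL5 WT, 16.9 and 59.0 in ACL5 ktn1, 57.2 and 106 in EN7 WT and 164.6 and 64.2 in EN7 ktn1. The EN7 libraries lay above the ACL5 libraries in each genotype, though EN7 WT replicate 1 was below ACL5 ktn1 replicate 2. The MIR447 family, whose known targets are genes similar to 2-phosphoglycerate kinase, gave 2 entries. The entry shared by miR447a-3p and miR447b had 64.4 and 61.5 RPM in ACL5 WT, 103 and 45.1 in ACL5 ktn1, 55.9 and 27.7 in EN7 WT and 27.3 and 15.8 in EN7 ktn1. A second product of MIR447a, miR447a.2-3p, had 45.1 and 42.4 RPM in ACL5 WT and 44.6 and 37.7 in ACL5 ktn1, against 15.01 and 15.6 in EN7 WT and 15.8 and 11.3 in EN7 ktn1. All 4 ACL5 libraries lay above all 4 EN7 libraries for this product, with a gap between 15.8 and 37.7 RPM.

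Of the remaining members tested, no target is given here. miR779.2 had 54.6 and 32.2 RPM in ACL5 WT, 23.5 and 22.8 in ACL5 ktn1, 74.4 and 56.2 in EN7 WT and 85.1 and 16.8 in EN7 ktn1. miR781a/miR781b had 50.6 and 34.8 RPM in ACL5 WT, 48.4 and 73.8 in ACL5 ktn1, 23.3 and 38.6 in EN7 WT and 43.2 and 36.8 in EN7 ktn1. miR848 ranged from 7.75 to 32.5 RPM over the 8 root libraries, and for neither entry did a group stand clear of all the others. miR840-3p, from a locus overlapping the pentatricopeptide repeat gene AT2G02750, had 9.36 and 8.10 RPM in ACL5 WT, 6.71 and 7.26 in ACL5 ktn1, 19.0 and 14.8 in EN7 WT and 13.5 and 6.67 in EN7 ktn1. Its EN7 WT values were above those of all other root libraries. miR831-3p differed widely between replicates, at 105 RPM in EN7 WT replicate 1 and 12.7 RPM in replicate 2, and at 50.7 and 10.8 RPM in ACL5 ktn1. The ACL5 WT libraries had 18.4 and 23.4 RPM, the EN7 ktn1 libraries 8.54 and 7.56 RPM. Replicates of the 12 members tested differed by a median of 0.52 (WT) and 0.50 (ktn1) on the log2 scale in ACL5 lines, and by 0.61 (WT) and 0.84 (ktn1) in EN7 lines.

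Among less abundant members, miR838 is cut from a transcript of DCL1, the gene for the main Dicer-like enzyme of miRNA production, whose locus (AT1G01040) spans MIR838. It was found in all 12 libraries, at 2.26 to 7.63 RPM in root AGO1 and 0.653 to 1.02 RPM in seedlings. miR859, from a family known to target F-box genes, had 0.0981 to 3.05 RPM in root AGO1. miR829-5p showed wide differences below the level required for a test, with 6.77 and 5.86 RPM in ACL5 WT, 1.87 and 0.854 in ACL5 ktn1, 9.92 and 0.432 in EN7 WT and 0.769 and 0 in EN7 ktn1. In ACL5 the ktn1 pair lay under the WT pair, while in EN7 1 of the WT libraries lay among the ktn1 values. Such a separation in ACL5 was found in 23.3% of the 86 entries tested. Its share among untested entries was not computed.

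All 60 names of the 58 entries matched a miRNA locus in the RefSeq gene table of TAIR10.1, 44 different loci in all. Of these, 19 overlap a protein-coding gene, among them MIR838 in DCL1, MIR837 in NRT1.9 (AT1G18880), MIR862 in PKL (AT2G25170) and MIR841a at HTA4 (AT4G13570), a histone H2A gene. MIR850 and MIR863 lie in the same noncoding transcript, AT4G13495. MIR833a and MIR833b overlap each other, as do MIR781a and MIR781b. Whether the authors counted reads by strand is not given in the sources used here. No coordinates are given because the labels name TAIR10 as the build.

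The layers were compared by the difference in log2(RPM + 1), ACL5 minus EN7, with limma and Benjamini-Hochberg adjustment over the 86 entries tested. In ktn1, 1 of 12 members passed at an adjusted p under 0.05, beside 16.3% of all entries tested. This was miR833a-5p, from a locus on chromosome 1 that overlaps AT1G78476. It had 26.4 and 21.8 RPM in ACL5 ktn1 and 5.15 and 2.94 RPM in EN7 ktn1, with no overlap. The mean was 24.1 ± 3.26 against 4.05 ± 1.56 RPM (SD, n = 2 each), a 5.95-fold difference. The log2 difference was 2.34 (SE 0.56, 95% interval 1.01 to 3.67, adjusted p = 0.031). The call was lost when either ACL5 WT, either ACL5 ktn1 or either EN7 ktn1 library was left out (adjusted p 0.059 to 0.164, log2 difference 2.02 to 2.66). With libraries rescaled to equal miRNA sums outside miR165 and miR166 the adjusted p was 0.094, and with no filter on low values it was 0.088. Without both libraries that stood apart, an alternative added after the data were seen, 4 of 12 members passed, beside 36 of 83 entries. They were miR447a-3p/miR447b, miR831-3p and miR833a-5p, higher in ACL5, and miR775, lower. That fit holds 1 library of ACL5 ktn1, which is assumed to vary like the libraries of the other groups.

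In WT no member of 12 passed in limma, beside 3.49% of all entries, and 1 member had an unadjusted p under 0.05. That member was miR447a.2-3p, at 43.7 ± 1.91 RPM in ACL5 and 15.3 ± 0.386 RPM in EN7 (SD, n = 2 each), a 2.86-fold difference. Its log2 difference was 1.46 (SE 0.48, 95% interval 0.33 to 2.59, adjusted p = 0.183). In ktn1 it was 1.55 (SE 0.48, adjusted p = 0.069), at 41.2 ± 4.91 against 13.5 ± 3.17 RPM. When the 2 genotypes were averaged in the same fit, a contrast added after these values were seen, miR447a.2-3p passed (1.504 on the log2 scale, SE 0.34, limma adjusted p = 0.024). miR833a-5p passed as well (2 of 12 members, against 22 of 86 entries). These were also the 2 members of 12 with all 4 ACL5 libraries above all 4 EN7 libraries, beside 14% of all entries tested. No member had all 4 ACL5 libraries below all 4 EN7 libraries, beside 8.14% of all entries.

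miR833a-5p in WT was at 17.1 and 24.8 RPM in ACL5 and at 13.1 and 7.20 RPM in EN7. Here too the layers did not overlap, but the log2 difference of 1.01 (SE 0.56, 95% interval -0.32 to 2.34) did not pass. Its ktn1 change was 0.21 in ACL5 and -1.13 in EN7, and the difference between these changes, 1.33 (SE 0.79, adjusted p = 0.908), did not pass either. The larger layer difference in ktn1 than in WT is therefore not shown to be a difference between genotypes. The opposite strand, miR833a-3p, had 0 to 7 reads in each root library, and miR833b had 0.440 to 3.02 RPM.

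In the other direction miR775 was lower in ACL5 in both genotypes. The log2 difference was -1.22 (SE 0.83, 95% interval -3.19 to 0.75) in WT and -1.66 (SE 0.83, 95% interval -3.63 to 0.31) in ktn1, with adjusted p-values of 0.407 and 0.215. The groups did not overlap within either genotype. Of the 12 members, 5 had both ACL5 WT libraries below both EN7 WT libraries (miR775, miR779.2, miR823, miR840-3p and miR845a), beside 25.6% of all entries, and 4 had both above (miR447a-3p/miR447b, miR447a.2-3p, miR833a-5p and miR848), beside 30.2%. In ktn1 both ACL5 libraries were below both EN7 libraries for miR775 alone, 1 of 12, beside 16.3%, and above for 6, beside 53.5%. The median log2 difference of the 12 members was -0.11 in WT, where that of all entries was 0.39, and 1.0 in ktn1, where that of all entries was 0.91.

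**Figure D2:**
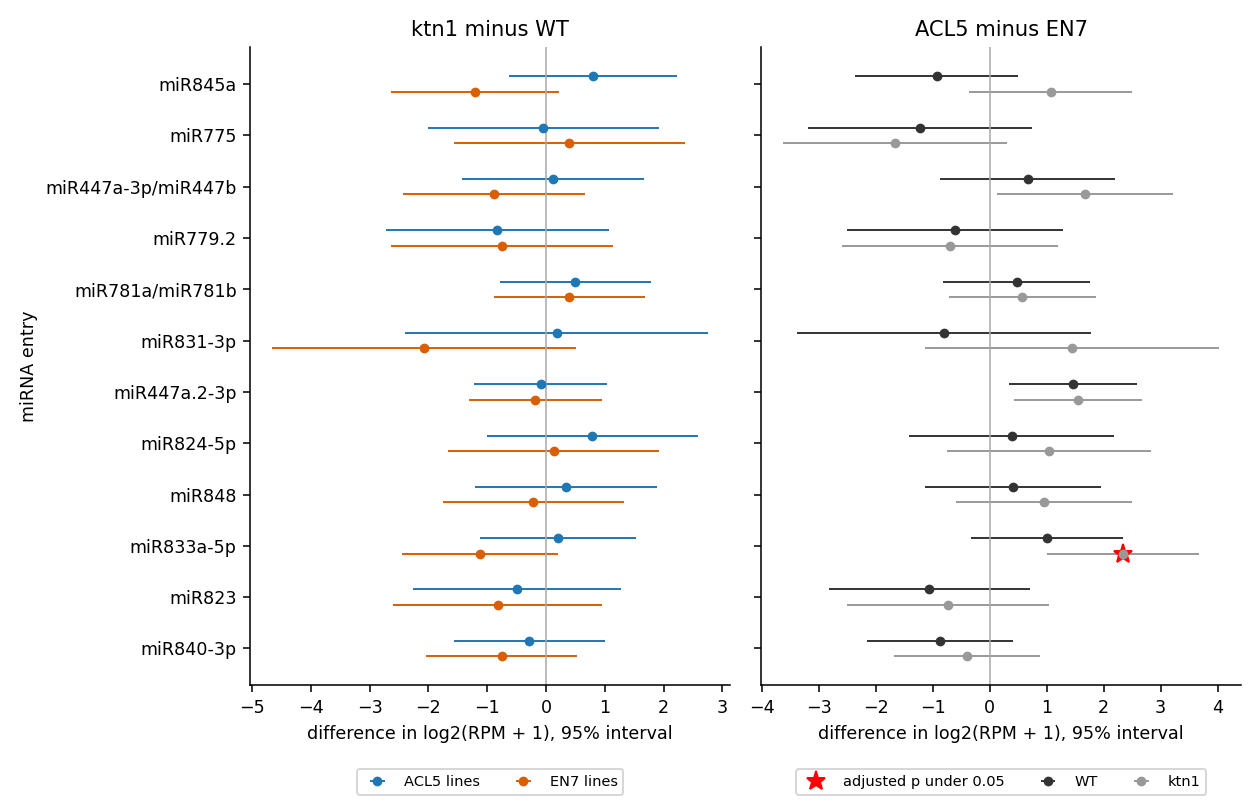
Differences in log2(RPM + 1) with 95% intervals from the limma fit of the 8 AGO1 libraries, for the 12 members tested: ktn1 minus WT in each line on the left, ACL5 minus EN7 in each genotype on the right. The star marks miR833a-5p in ktn1, the 1 difference with an adjusted p under 0.05, while both intervals of miR447a.2-3p on the right lie above 0.

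For the genotypes, the question was whether the AGO1-bound level in RPM, a share of reads, differed between ktn1 and WT in each layer. In ACL5 lines no member of 12 passed in limma, beside 4.65% of all entries tested, and none had an unadjusted p under 0.05. The log2 changes, ktn1 minus WT, ran from -0.83 for miR779.2 to 0.80 for miR845a, with a median of 0.15 against -0.0019 for all entries. miR845a, at 118 ± 15.6 RPM in ktn1 and 67.1 ± 6.95 RPM in WT (SD, n = 2 each), was the 1 member of 12 with both ktn1 libraries above both WT libraries, beside 24.4% of entries. Its adjusted p was 0.621 and its 95% interval -0.63 to 2.23. miR779.2 (23.2 ± 0.480 against 43.4 ± 15.8 RPM) and miR840-3p (6.98 ± 0.392 against 8.73 ± 0.895 RPM) had both ktn1 libraries below both WT libraries, 2 of 12 beside 23.3%. Their log2 changes were -0.83 (SE 0.80, adjusted p = 0.702) and -0.28 (SE 0.54, adjusted p = 0.856). On simulated data this comparison called 4.67% of log2 changes of 1, so real changes of that size would mostly be missed.

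In EN7 lines no member of 12 passed either, beside 6.98% of all entries, and none had an unadjusted p under 0.05. In 6 of 12 members both ktn1 libraries lay below both WT libraries, beside 34.9% of all entries, and in none above, beside 11.6%. The 6 were miR447a-3p/miR447b, miR823, miR831-3p, miR833a-5p, miR840-3p and miR845a. The median log2 change of the 12 members was -0.75, against -0.47 for all entries. miR845a stood at 55.2 ± 1.27 RPM in ktn1 and 143 ± 89.1 RPM in WT, a log2 change of -1.20 (SE 0.60, 95% interval -2.64 to 0.23, adjusted p = 0.339). Without EN7 WT replicate 1 the change was -0.53. miR831-3p had the widest change, -2.08 (SE 1.09, adjusted p = 0.367), which was -0.60 without EN7 WT replicate 1 and -3.56 without EN7 WT replicate 2, where it passed (adjusted p = 0.037). miR833a-5p changed by -1.13 (SE 0.56, 95% interval -2.46 to 0.20, adjusted p = 0.339), and by -0.74 without EN7 WT replicate 1.

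No member of 12 passed the test of whether the ktn1 change differed between the layers, beside 2.33% of all entries, and none had an unadjusted p under 0.05 in limma. The median of these differences, ACL5 minus EN7, was 0.51 for the members and 0.45 for all entries.

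In seedlings no member of the 5 tested passed between ktn1 and WT in limma, beside 1.61% of the 62 entries, and none had an unadjusted p under 0.05. miR775 was the 1 member with both ktn1 libraries (16.4 and 11.8 RPM) below both WT libraries (20.0 and 19.3 RPM), beside 35.5% of entries. Its log2 change was -0.47 (SE 0.34, 95% interval -1.14 to 0.21, adjusted p = 0.643). No member had both ktn1 libraries above both WT libraries, beside 9.68%. For miR447a.2-3p, the member with the highest WT level in seedlings, WT values of 28.6 and 19.7 RPM overlapped ktn1 values of 21.1 and 14.2 RPM. For miR824-3p the WT values were 11.9 and 11.1 RPM, between the ktn1 values of 13.6 and 8.93 RPM. Outside the test, miR843 was at 10.1 and 6.84 RPM in WT against 3.61 and 4.36 RPM in ktn1, without overlap. It is given outside the rules for naming members, and the share of untested entries separated in this way was not computed. Among the 62 entries tested, both ktn1 libraries lay below both WT libraries in 35.5%. miR843 entered the alternative fit with a filter of 1 RPM, where 0 of 20 members passed, beside 1 of 127 entries. With 4 libraries the spread in this fit was pooled over all 62 entries (124 degrees of freedom), which treats entries of the same library as independent.

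Root AGO1 and whole seedlings differ in tissue, age, transgene and assay, so their levels are set side by side and these differences cannot be told apart. For the abundant members the seedling values were 5.37 to 9.15 RPM for miR447a-3p/miR447b, 1.82 to 3.70 RPM for miR779.2 and 8.76 to 10.9 RPM for miR781a/miR781b. In addition, fewer cells of a type and less RNA per cell cannot be told apart in whole seedlings. Of 31 members with more than 3 reads in both WT sets, 23 had a higher mean RPM in WT root AGO1 than in WT seedlings and 8 a lower one. Of the 154 entries of the series with such a ratio, 109 were higher in WT root AGO1 and 45 lower. The median ratio was 3.33 for the members and 3.34 over these 154 entries. All listed miRNAs together made up 25.1% to 37.2% of reads in the WT AGO1 libraries and 2.12% and 2.45% in WT seedlings. A higher RPM in root AGO1 is therefore not by itself a larger share of the miRNAs there. The single members differed widely. miR831-3p was 91.3-fold higher in WT root AGO1 (39.9 against 0.437 RPM), miR833a-5p 28.9-fold (15.6 against 0.538 RPM), miR779.2 19.6-fold (54.4 against 2.78 RPM) and miR773a 17.1-fold (2.26 against 0.132 RPM). For each of these 4 the lowest of 8 root libraries lay above the highest of 4 seedling libraries. This was not particular to them, since it also held for other members, such as miR848, miR840-3p and miR845a. Its share over all entries was not computed. At the other end, miR866-3p was 9.38-fold higher in WT seedlings (6.25 against 0.666 RPM), miR824-3p 8.95-fold (11.5 against 1.28 RPM), miR844-3p 3.34-fold (0.864 against 0.259 RPM), miR865-5p 3.17-fold (1.36 against 0.428 RPM) and miR852 3.10-fold (3.42 against 1.10 RPM). miR866-3p had no read in 4 of the 8 root libraries and 71 to 154 reads in each seedling library.

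**Figure D3:**
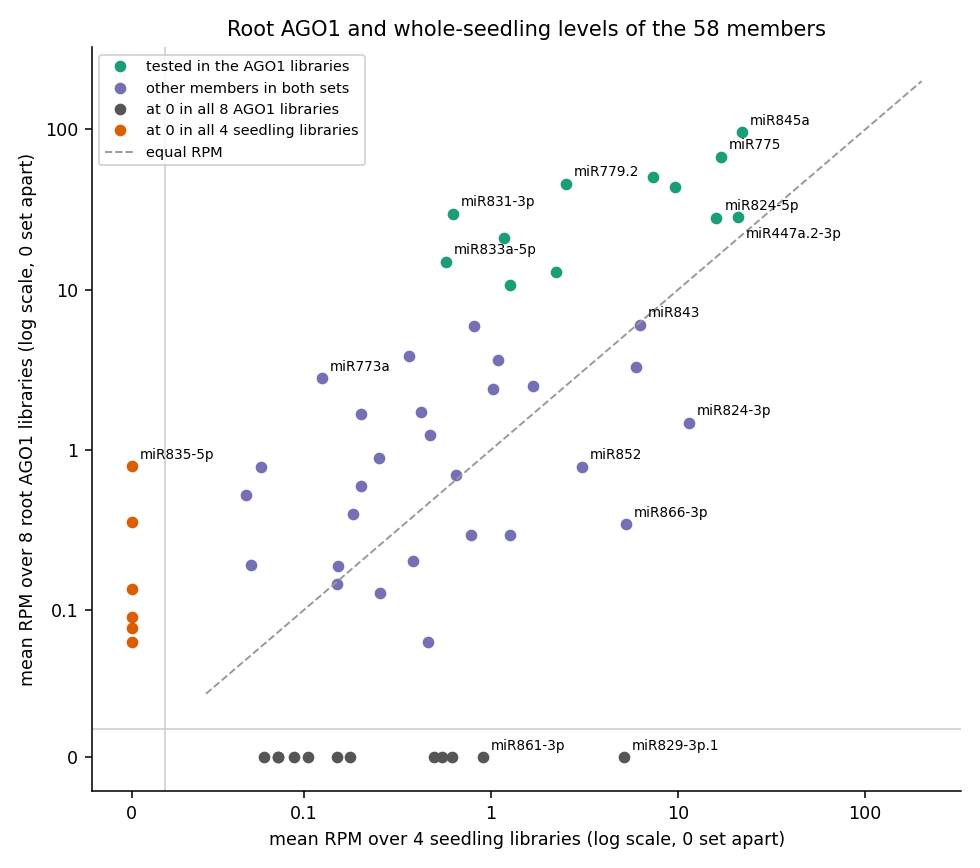
Mean RPM over the 8 root AGO1 libraries against mean RPM over the 4 seedling libraries for the 58 members, on log scales with 0 set apart by grey lines. Each point is 1 member, coloured by where it was found, and the dashed line marks equal RPM. The 12 members at 0 in all AGO1 libraries lie along the bottom, with miR829-3p.1 far to the right of the others.

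The 2 strands of a hairpin differed in where they were found. For miR824, 5p reads made up 92.5% to 96.8% of the reads of both strands in the 8 AGO1 libraries and 56.6% to 61.6% in the 4 seedling libraries. The means were 94.7% ± 1.55 (SD, n = 8) and 58.6% ± 2.25 (SD, n = 4), a difference of 36.0 percentage points. For miR840 both strands were found with AGO1, and the 3p strand made up the larger share in each of the 8 libraries. Its 5p share was 7.85% to 39.7% in AGO1 libraries and 54.2% to 60.6% in seedlings, with means of 19.2% ± 10.4 (SD, n = 8) and 57.4% ± 2.65 (SD, n = 4). For each of these 2 hairpins, the only ones with at least 10 reads in every library, the ranges did not overlap and the exact two-sided permutation p was 0.0040, also after adjustment over the 2, which is the smallest that 8 against 4 can give. This test was added after the shares were seen, and ranges without overlap fix its p at that smallest value, so it adds no support. It also treats AGO1 libraries of different layers and genotypes as alike, and the 2 sets differ in tissue, age, transgene and assay. The 2 highest 5p shares of miR840 in root AGO1, 29.3% and 39.7%, were those of the ACL5 WT libraries, where miR840-5p had 3.89 and 5.34 RPM.

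Other hairpins had fewer reads. miR833a was almost wholly 5p in AGO1, with 957 of 969 reads in the 8 libraries together (98.8%, exact Clopper-Pearson 95% interval 97.8% to 99.4%), and 53 of 66 reads in seedlings (80.3%, interval 68.7% to 89.1%). For miR863 all 51 reads in AGO1 libraries were 5p (interval of the share 93.0% to 100%), while seedlings held 73 5p and 45 3p reads (61.9%, interval 52.5% to 70.6%). The miR863-3p strand, known to target SERRATE and receptor-like kinase genes in plant immunity, was thus among the members without any root AGO1 read. For miR837 the 5p share spread from 4.76% to 65.0% over the 7 AGO1 libraries with at least 10 reads and overlapped that of seedlings.

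**Figure D4:**
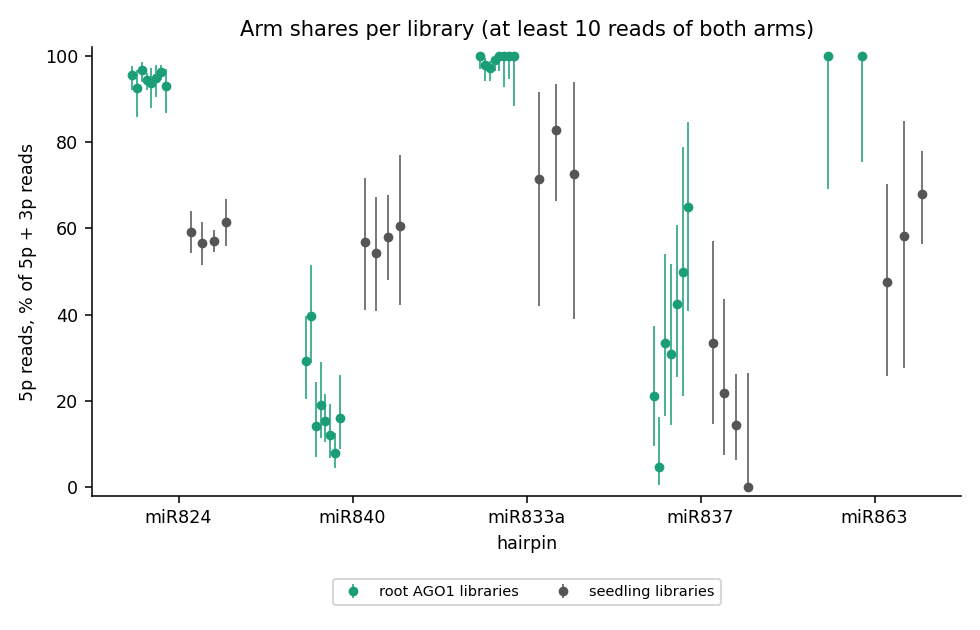
Share of 5p reads among the 5p and 3p reads of 5 hairpins in each library with at least 10 reads of both strands, with exact 95% binomial intervals. Green points are root AGO1 libraries and grey points seedling libraries. The AGO1 points of miR824 lie above and those of miR840 below all seedling points, while those of miR837 overlap.

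Members seen only in seedlings numbered 12 of 58 (20.7%), against 17.03% of the other entries of the series. Of these 12, 7 reached 3 reads in both replicates of a seedling group. The most abundant was miR829-3p.1, with WT values of 5.59 and 5.95 RPM and ktn1 values of 4.96 and 3.92 RPM, or 444 reads in all. None was found in 8 AGO1 libraries, whose floor of 3 reads over all of them was 0.0433 RPM, so its mean was at least 118-fold higher in seedlings. Other products of the same hairpin were found with AGO1, miR829-3p.2 at 0.883 to 9.54 RPM and miR829-5p at 0 to 9.92 RPM. miR861-3p had 1.53, 0.576, 0.744 and 0.799 RPM in the seedling libraries, and its mean was at least 21.0-fold above the AGO1 floor. miR826a, known to be induced by low nitrogen and to act on glucosinolate synthesis, had 0.799 and 0.512 RPM in WT seedlings and 0.135 and 1.02 RPM in ktn1 seedlings, a mean at least 14.2-fold above it. miR863-3p had 0.799, 0.320, 0.564 and 0.290 RPM in the same order of libraries, WT before ktn1. The corresponding bounds were 12.6-fold for miR847 and 11.4-fold for miR863-3p. The remaining 7 (miR402, miR771, miR830-5p, miR835-3p, miR844-5p, miR864-3p and miR864-5p) had 5 to 17 reads each over the 4 seedling libraries, with bounds of 1.42-fold to 4.08-fold.

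The reverse was rarer and fainter. There were 6 members with reads in AGO1 libraries and none in seedlings (10.3%, against 6.04% of the other entries): miR835-5p, miR841b-5p, miR841b-3p, miR862-3p, miR851-3p and miR868-5p. miR835-5p was the most abundant, with 0.720 and 0.689 RPM in ACL5 WT, 0 and 0.854 in ACL5 ktn1, 0 and 1.15 in EN7 WT and 2.31 and 0.589 in EN7 ktn1. It reached 3 reads in both replicates of ACL5 WT and of EN7 ktn1. miR841b-5p had 0 to 7 reads per root library, miR841b-3p 0 to 5, and miR862-3p 5 reads in ACL5 WT replicate 1 alone.

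Most members recovered with AGO1, 30 of 36, reached the floor in both layers. The same split was not computed for the other entries of the series, so it is not shown to be particular to the members. In ACL5 alone the floor was reached by miR841a-5p, miR851-5p, miR865-5p and miR866-3p, and in EN7 alone by miR853 and miR870-3p. miR851-5p had 1, 1, 5 and 31 reads in the ACL5 libraries and none in EN7, a mean at least 13.2-fold above the EN7 floor, with most reads in ACL5 ktn1 replicate 2. miR853 had 0, 5, 4 and 5 reads in the EN7 libraries and none in ACL5. miR841a-5p was found in both ACL5 ktn1 libraries (0.660 and 0.961 RPM, 6 and 9 reads) and in no other root library, at least 3.44-fold above the floor of ACL5 WT. miR870-3p had 17 reads in ACL5 and 9 in EN7, but in EN7 ktn1 alone did both replicates hold at least 3. Reads of miR865-5p (12 in ACL5, 6 in EN7) and miR866-3p (13 in ACL5, 5 in EN7) were likewise found in both layers.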

How the data were processed

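Small RNA libraries were made with a NEBNext kit, per the labels' protocols, from GFP-AGO1 immunoprecipitates of roots and from total RNA of seedlings. The authors deposited 1 file of RPM values per library, as judged from the values. Cutadapt, Bowtie and the build TAIR10 are named in the submitters' processing notes, without versions. The reads in the denominator, the miRNA annotation and the treatment of reads with several matches are not given in the sources used here.

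Entries missing from a file were taken as 0. Dividing each file by its lowest value gave whole numbers (within 0.01) for 100% of its entries, from which reads were inferred. These inferred reads served floors and strand shares, and no count test was run on them. Because RPM has a fixed denominator, a miRNA taking a larger share lowers the others.

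Values were analysed as log2(RPM + 1), which understates changes near 1 RPM. Entries that reached 10 RPM in 2 or more libraries were fitted, 86 in the 8 AGO1 libraries and 62 in the 4 seedling libraries, with limma 3.58.1 in R 4.3.3 (mean-variance trend, two-sided, Benjamini-Hochberg over all entries, threshold 0.05), and the fit was tested on simulated data. For ktn1 versus WT in ACL5 lines, 4.67%, 27.8% and 64.2% of simulated log2 changes of 1, 2 and 3 were called. Of the calls, 9.68%, 5.65% and 6.78% were false. In seedlings 67.7%, 94.3% and 96.7% were called, with 5.14%, 4.23% and 4.29% of calls false. The simulated noise was drawn independently for each entry and library, without shifts shared by the entries of a library. These rates therefore cannot show how the fits behave where such shifts are present. The remaining steps used pandas 2.3.3, SciPy 1.17.1 and NumPy 2.4.6 under Python 3.11.15, with matplotlib 3.10.9 for plots. Members, their role lists and the tests were chosen with earlier results of these data known. Values in every library are given for members past the threshold, the highest 8 in AGO1 and 5 in seedlings, up to 3 with the largest change without overlap per comparison, and the highest 5 found in 1 set alone. Others are named for their class or role, except miR829-5p and miR843, whose values are given outside these rules. The alternatives were other filters, pseudocounts, rescalings, limma without the trend, a replicate block and single libraries left out. Replicate numbers from the titles were not taken as pairs.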

Additional observations from a re-analysis of the deposited data

Results flagged for a closer look

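miR845a was the 1 member of 12 tested whose ktn1 libraries all moved one way in ACL5 and the opposite way in EN7, and 7 of 86 entries tested did so (8.14%). It had 72.0 and 62.2 RPM in ACL5 WT against 107 and 129 RPM in ACL5 ktn1, and 206 and 80.0 RPM in EN7 WT against 56.1 and 54.3 RPM in EN7 ktn1. The test of the difference itself did not pass: the ktn1 change in ACL5 minus that in EN7 was 2.00 on the log2 scale (SE 0.85, unadjusted p = 0.052, adjusted p = 0.557, limma). Without EN7 WT replicate 1, one of the libraries that stood apart, it was 1.33.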

How the results depend on the processing

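Counts of passing members stayed at 0 in the layer dependence of the ktn1 change and in seedlings under every alternative run. For the ktn1 change in ACL5, 1 member (miR841a-5p, log2 change 0.85) passed with no filter, beside 7 of 197 entries. With no filter miR841a-5p was also the 1 member passing between layers in ktn1 (beside 11 of 197 entries), where miR833a-5p did not pass (adjusted p = 0.088). All 15 root reads of miR841a-5p were in ACL5 ktn1, so it entered the fit through that group alone. Its values of 0 in the other groups have no spread, so these passes are no support for a change. Between layers in ktn1, 4 of 13 members passed with equal miRNA sums (34 of 87 entries), 0 of 12 with equal sums outside miR165 and miR166 (13 of 86), 2 of 12 without the mean-variance trend (16 of 86) and 4 of 12 without both libraries that stood apart (36 of 83). Averaged over the genotypes, 2 passed between layers. With single libraries left out the count ranged from 0 to 1 between layers in ktn1 and from 0 to 1 for ktn1 in EN7 (1 without EN7 WT replicate 2). Equal miRNA sums moved the median log2 difference of all entries to 1.67 between layers in ktn1 and to -1.17 for ktn1 in EN7. The replicate block gave 1 passing member between layers in ktn1 (miR833a-5p, adjusted p = 0.036) and 0 in each other comparison. Deviations of same-numbered libraries correlated at -0.483 in ACL5 and 0.424 in EN7, and with ACL5 ktn1 numbers crossed 0 passed between layers in ktn1. The ktn1 change of miR845a was -0.20 when averaged over ACL5 and EN7, a different contrast in which the opposite changes of the layers largely cancel; in ACL5 itself it stayed above 0 under every alternative run. A floor of 10 reads left 23 members recovered with AGO1, and single libraries left out gave 36 to 39. Requiring 3 reads in both seedling replicates left 7 seen only in seedlings. The log2 ratio of summed levels, ktn1 to WT in ACL5, was 0.26 in RPM (0.11 to 0.43 with single libraries left out), 0.020 as a share of listed miRNAs and -0.18 outside miR165 and miR166. Between layers in ktn1 it was 0.42 in RPM (-0.0091 to 1.05), 1.25 as a share of listed miRNAs and -0.021 outside miR165 and miR166. Causes were not tested. The planned count tests were not run, since too few low values per file were at hand to accept inferred reads. Members below the filter of 10 RPM were left untested by that choice, and 28 members entered the AGO1 fit with a filter of 1 RPM.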
